A study of Homo sapiens with 6 samples.

Results

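SGPP1, the phosphatase that turns sphingosine-1-phosphate back into sphingosine, and ACER2, the Golgi alkaline ceramidase, were followed with 8 related enzymes of ceramide and sphingosine-1-phosphate metabolism in A549 cells, a human lung cancer cell line. The 10 enzymes were chosen by symbol from the platform annotation. SGPP1 and ACER2 were picked on their falls with MYEOV siRNA in these same arrays, and the other 8 were added to show whether the pathway moves. A named row was found for 9 of the 10 enzymes, out of 14884 named genes. SPHK2, a sphingosine kinase, had none and was not analysed here. The 9 enzymes were covered by 11 rows, and all 9 passed the filter on dim genes, a mean of at least 5.45 over the 6 arrays, which left 7442 genes for testing.

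The cells received a control siRNA (siNC), siRNA 1 against MYEOV or siRNA 2 against MYEOV, and total RNA was taken 48 hours later. Each group had 2 arrays, and all groups are the same cell line given the same transfection reagent. The labels do not say whether the 2 arrays of a group came from separate transfections, so each p-value reflects array-to-array spread that may be only technical. Sequences of the siRNAs were not given in the sources used here. Levels are log2 signals made by RMA, which corrects background, equalises the arrays and summarises the probes of each transcript, so a difference of 1 is a 2-fold change and differences of dim genes are understated.

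Sphingolipids are membrane lipids that also act as signals. Ceramide synthases join a fatty acid to a sphingoid base to make ceramide, ceramidases cut ceramide back to sphingosine, and sphingosine kinases convert sphingosine to sphingosine-1-phosphate, which is either dephosphorylated by SGPP1 or split irreversibly by the lyase SGPL1. Ceramide is generally associated with growth arrest and cell death, and sphingosine-1-phosphate with survival and migration. Glucosylceramide synthase, UGCG, draws ceramide into glycosphingolipids, and sphingomyelin synthases draw it into sphingomyelin.

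The groups differed as labelled in the targeted gene. MYEOV measured 6.20 and 6.50 on the control arrays, 5.34 and 5.19 on the siRNA 1 arrays, and 5.23 and 4.70 on the siRNA 2 arrays, so its mean signal was 47.1% and 38.3% of the control (limma adjusted p = 0.0215 and 0.00516). The siRNA 1 call was lost without either control array (0.0671 and 0.112) or either siRNA 1 array (0.0880 and 0.146), and over all alternatives it had 0.00825 to 0.146. Array medians lay between 4.08 and 4.10. Of 6 epithelial markers 5 had a named row, and all 5 (EPCAM, KRT7, KRT8, KRT18 and KRT19) passed the filter. None of these 5 was called for either siRNA against control. With siRNA 2 the rows used for the 4 keratins had differences of -0.34 to -0.21, and EPCAM had 0.23. A second, dimmer row of KRT18 also passed the filter. It had -0.05 with siRNA 2 and overlapped the control (limma adjusted p = 0.730 with every row tested). Of 6 markers of blood, endothelial and stromal cells 2 had a named row, PECAM1 at 2.22 to 3.08 and CD14 at 3.67 to 4.66, both below the filter.

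The upstream sequences of ACER2, SGPL1 and UGCG are shown because these are the members, besides SGPP1, whose levels stood furthest from the control with at least 1 siRNA. Each run is the 250 bases before the annotated start, 5′ to 3′ on the gene's strand, from RefSeq on GRCh38.p14, where 7 of the 10 enzymes matched a window by symbol. SGPP1 matched none, so its sequence is not shown. The windows are chr9:19408759-19409008 for ACER2, chr10:70815698-70815947 for SGPL1 and chr9:111896564-111896813 for UGCG, all on the plus strand. Capitals mark the letters GGGCGG, the core of the GC box, or its reverse complement.
ACER2: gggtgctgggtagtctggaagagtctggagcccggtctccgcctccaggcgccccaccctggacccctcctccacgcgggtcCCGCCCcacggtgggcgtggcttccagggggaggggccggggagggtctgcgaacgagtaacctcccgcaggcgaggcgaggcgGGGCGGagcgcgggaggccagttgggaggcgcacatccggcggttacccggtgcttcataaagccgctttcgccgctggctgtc
SGPL1: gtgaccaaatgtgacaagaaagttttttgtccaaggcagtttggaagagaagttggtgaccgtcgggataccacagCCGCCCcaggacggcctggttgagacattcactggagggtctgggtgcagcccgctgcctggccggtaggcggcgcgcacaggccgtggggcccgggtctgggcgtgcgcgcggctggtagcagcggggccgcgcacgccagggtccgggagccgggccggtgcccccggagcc
UGCG: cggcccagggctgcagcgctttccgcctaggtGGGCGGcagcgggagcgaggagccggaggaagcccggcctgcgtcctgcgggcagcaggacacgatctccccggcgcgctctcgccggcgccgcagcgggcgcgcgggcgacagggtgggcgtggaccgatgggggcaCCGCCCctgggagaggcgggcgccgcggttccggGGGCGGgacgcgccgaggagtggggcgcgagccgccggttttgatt

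ACER2 has 2 such matches, SGPL1 has 1 and UGCG has 3, and 42.6% of the 35116 windows in the table hold at least 1. The letters CCAAT of the CCAAT box were in 0 of the 3 windows and in 32.0% of all windows, searched on both strands. The E-box written CACGTG was in 0 of the 3 and in 6.35% of all, and the TATA box written TATAAA in 0 of the 3 and in 10.7% of all. The searched letters do not overlap each other here, and a match is a description of the sequence, not of binding. The share of G and C was 72.4% for ACER2, 68.8% for SGPL1 and 78.4% for UGCG, against a median of 58.0% over all windows.

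SGPP1 was lowest with siRNA 1 and lay between the other groups with siRNA 2. It measured 8.96 and 8.99 on the control arrays, 7.77 and 7.85 on the siRNA 1 arrays, and 8.63 and 8.72 on the siRNA 2 arrays. None of the groups overlapped, and replicate arrays lay closer together than any 2 groups did. Arrays did not overlap for 48.8% of all tested genes between siRNA 1 and control. The share was 50.6% between siRNA 2 and control and 54.5% between the siRNAs. The difference from control was -1.17 ± 0.07 (SE, n = 2 arrays per group) with siRNA 1, which leaves 44.5% of the control signal, and -0.30 ± 0.07 with siRNA 2, which leaves 81.2%. Since SGPP1 was picked on this difference, these values are a description and carry no test. Among the 7442 tested genes it had the 7th lowest difference with siRNA 1 and the 520th lowest with siRNA 2. In bulk RNA, fewer cells of a type and less RNA per cell cannot be told apart.

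ACER2 was lower than both control arrays on all 4 MYEOV siRNA arrays. It measured 6.53 and 6.37 on the control arrays, 5.94 and 5.68 on the siRNA 1 arrays, and 5.99 and 5.92 on the siRNA 2 arrays. The arrays of the siRNAs overlapped each other but not the control, which 48.8% (siRNA 1) and 50.6% (siRNA 2) of all tested genes did not overlap either. The difference from control was -0.64 ± 0.11 (SE, n = 2) with siRNA 1 and -0.50 ± 0.11 with siRNA 2, or 64.3% and 70.8% of the control signal. It ranked the 58th and the 178th lowest of the tested genes. ACER2 was also picked on these falls and is given without a test. With 1 array of siRNA 1 left out at a time, its difference with that siRNA was -0.77 or -0.51.

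**Figure D1:**
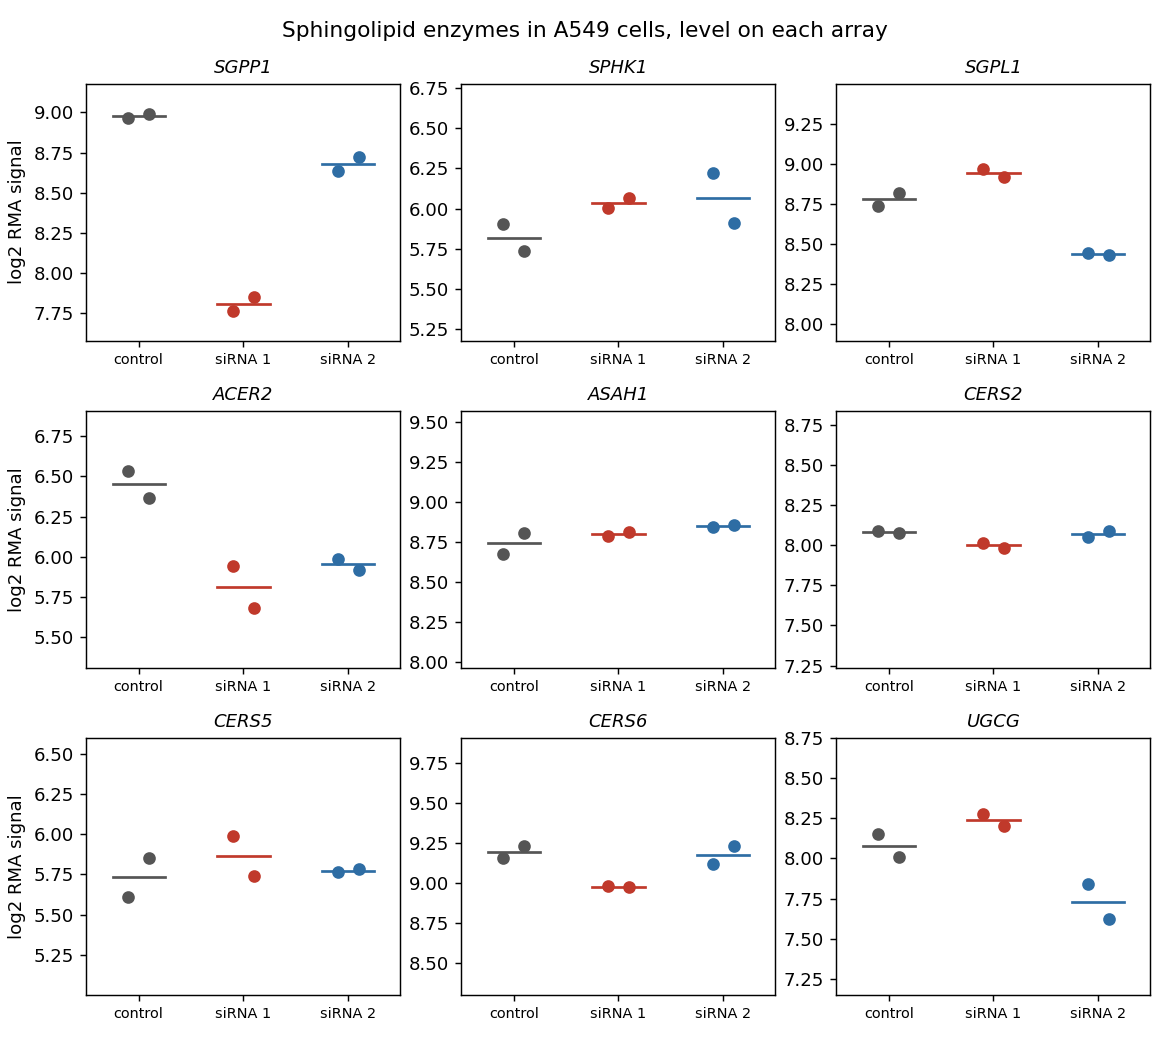
Level of each enzyme on each array (log2 RMA signal, vertical axis, the same span of 1.6 in every panel but not the same range) for the control siRNA, MYEOV siRNA 1 and MYEOV siRNA 2. Points are arrays and bars are means of 2. SGPP1 is lowest with siRNA 1, ACER2 is low with both siRNAs, and SGPL1 and UGCG are lowest with siRNA 2.

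Few of the other 7 enzymes with a row were called. With siRNA 1, limma with Benjamini-Hochberg adjustment over all tested genes called 0 of the 7, and 1 of 7 had an unadjusted p under 0.05. Of all tested genes, 2.28% were called higher and 2.38% lower in that comparison. Their median difference was 0.13, with a range of -0.22 to 0.22, against a median of -0.0027 over all genes. With siRNA 2, 1 of the 7 was called, as lower, where 2.59% of all tested genes were called higher and 4.23% lower, and 2 of 7 had an unadjusted p under 0.05. Their median difference was -0.01, with a range of -0.35 to 0.25, against 0.00054 over all genes. The groups did not overlap for 5 of the 7 with siRNA 1 and for 4 of the 7 with siRNA 2, where 48.8% and 50.6% of all tested genes did not. A list of 7 is too short to set apart from those shares. Both comparisons use the same 2 control arrays.

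The lyase SGPL1, which splits sphingosine-1-phosphate, was called lower with siRNA 2. It measured 8.74 and 8.82 on the control arrays, 8.97 and 8.92 on the siRNA 1 arrays, and 8.44 and 8.43 on the siRNA 2 arrays. Both siRNA 2 arrays lay below the control, and both siRNA 1 arrays above it. The difference with siRNA 2 was -0.34 ± 0.07 (SE, n = 2; 95% confidence interval -0.50 to -0.18, limma adjusted p = 0.0320), or 78.9% of the control signal. With siRNA 1 it was 0.16 ± 0.07 (interval -0.00 to 0.32, limma adjusted p = 0.260). The siRNA 2 call was lost with any 1 of the 6 arrays left out (limma adjusted p = 0.0637 to 0.148) and with no filter (0.196), and over all alternatives the adjusted p ran from 0.00703 to 0.196.

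SPHK1, the kinase that makes sphingosine-1-phosphate, was above both control arrays on all 4 siRNA arrays but was not called. It measured 5.90 and 5.73 on the control arrays, 6.001 and 6.07 on the siRNA 1 arrays, and 6.22 and 5.91 on the siRNA 2 arrays. The lower siRNA 2 array, at 5.91, was barely above the higher control array, at 5.90. The differences were 0.22 ± 0.11 (SE, n = 2; interval -0.05 to 0.49, limma adjusted p = 0.368) and 0.25 ± 0.11 (interval -0.02 to 0.52, limma adjusted p = 0.267). Leaving out 1 array of siRNA 2 moved the latter to 0.09 or 0.40. The 2 arrays of siRNA 2 were further apart than the siRNA means were, and the siRNAs differed by -0.03 (interval -0.30 to 0.24, limma adjusted p = 0.909).

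The lysosomal acid ceramidase ASAH1 was not called with either siRNA. It measured 8.68 and 8.81 on the control arrays, 8.79 and 8.81 on the siRNA 1 arrays, and 8.84 and 8.86 on the siRNA 2 arrays. Its siRNA 1 arrays overlapped the control and its siRNA 2 arrays lay above it. The differences were 0.06 (interval -0.11 to 0.23, limma adjusted p = 0.718) and 0.11 (interval -0.06 to 0.28, limma adjusted p = 0.449), so a change beyond 0.28 on the log2 scale lies outside both intervals.

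None of the ceramide synthases with a row, which differ in the fatty acid chain they prefer, was called. CERS6 measured 9.16 and 9.23 on the control arrays, 8.98 and 8.98 on the siRNA 1 arrays, and 9.12 and 9.23 on the siRNA 2 arrays. Both siRNA 1 arrays lay below the control, at -0.22 ± 0.07 (SE, n = 2; interval -0.39 to -0.04, limma adjusted p = 0.165), and the siRNA 2 arrays overlapped it. CERS6 is the enzyme with an unadjusted p under 0.05 for siRNA 1. A second, dimmer row of CERS6, between 3.58 and 4.13, was below the filter.

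CERS2 had 2 rows that gave different sizes. The brighter row, used here, measured 8.09 and 8.07 on the control arrays, 8.01 and 7.98 on the siRNA 1 arrays, and 8.05 and 8.09 on the siRNA 2 arrays, a difference of -0.08 with siRNA 1 (interval -0.24 to 0.07, limma adjusted p = 0.557). The dimmer row measured 6.86 and 7.06, then 6.56 and 6.55, then 6.90 and 6.76, a difference of -0.41 with siRNA 1 (interval -0.63 to -0.19, limma adjusted p = 0.0587 with every row tested). Both rows were below the control on both siRNA 1 arrays, and neither was called.

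CERS5 was close to the filter and the least precise of the synthases. It measured 5.61 and 5.85 on the control arrays, 5.99 and 5.74 on the siRNA 1 arrays, and 5.77 and 5.78 on the siRNA 2 arrays. All 3 groups overlapped, with differences of 0.13 (interval -0.13 to 0.40, limma adjusted p = 0.590) and 0.04 (interval -0.22 to 0.31, limma adjusted p = 0.877).

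UGCG, which makes glucosylceramide, followed the order of SGPL1. It measured 8.15 and 8.01 on the control arrays, 8.28 and 8.20 on the siRNA 1 arrays, and 7.84 and 7.62 on the siRNA 2 arrays. The siRNA 2 arrays lay below the control and the siRNA 1 arrays above it. Neither difference was called, at 0.16 ± 0.10 (SE, n = 2; interval -0.07 to 0.39, limma adjusted p = 0.430) with siRNA 1 and -0.35 ± 0.10 (interval -0.58 to -0.12, limma adjusted p = 0.0816) with siRNA 2. The latter was called with the 75th percentile filter (limma adjusted p = 0.0291) and under a trended, robust variance prior (0.0418), and over all alternatives it had 0.0291 to 0.326.

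**Figure D2:**
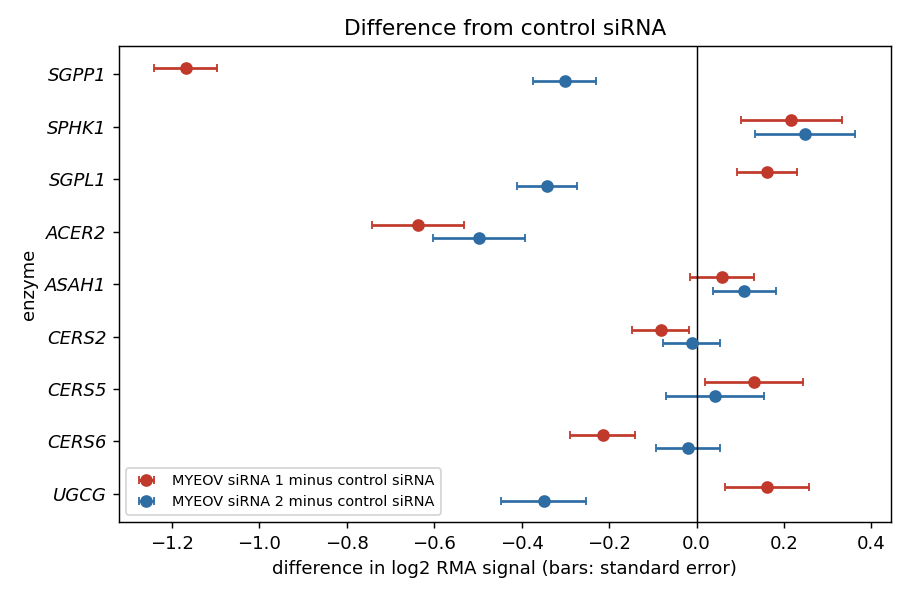
Difference from the control siRNA in log2 RMA signal (horizontal axis) for each enzyme with MYEOV siRNA 1 and MYEOV siRNA 2; points are differences of means of 2 arrays and bars are limma standard errors. SGPP1 at -1.17 and ACER2 at -0.64, both picked on their falls, stand apart with siRNA 1. SGPL1 and UGCG lie above 0 with siRNA 1 and below it with siRNA 2.

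The siRNAs were then compared with each other. The difference itself uses no control array, but the control arrays enter the filter and the spread behind each interval and p-value. SGPL1 and UGCG were both higher with siRNA 1 than with siRNA 2, and the other 5 tested enzymes were not called. Of all tested genes, 5.37% were called higher with siRNA 1 and 3.78% lower, and the arrays of the siRNAs did not overlap for 54.5% of all tested genes and for 5 of these 7. SGPL1 differed by 0.50 ± 0.07 (SE, n = 2; interval 0.34 to 0.67, limma adjusted p = 0.00585). UGCG differed by 0.51 ± 0.10 (interval 0.28 to 0.74, limma adjusted p = 0.0209). The SGPL1 difference was lost with no filter (limma adjusted p = 0.0599) and was called under the other 13 alternatives, where its lowest adjusted p was 0.000779. That of UGCG was lost with no filter (0.123) and without siRNA 1 replicate 1, siRNA 1 replicate 2 or siRNA 2 replicate 2 (0.118, 0.0864 and 0.0958), and its lowest was 0.00469. SGPP1 had the opposite order, at -0.87 ± 0.07, and ACER2 differed by -0.14 ± 0.11, both given without a test.

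**Figure D3:**
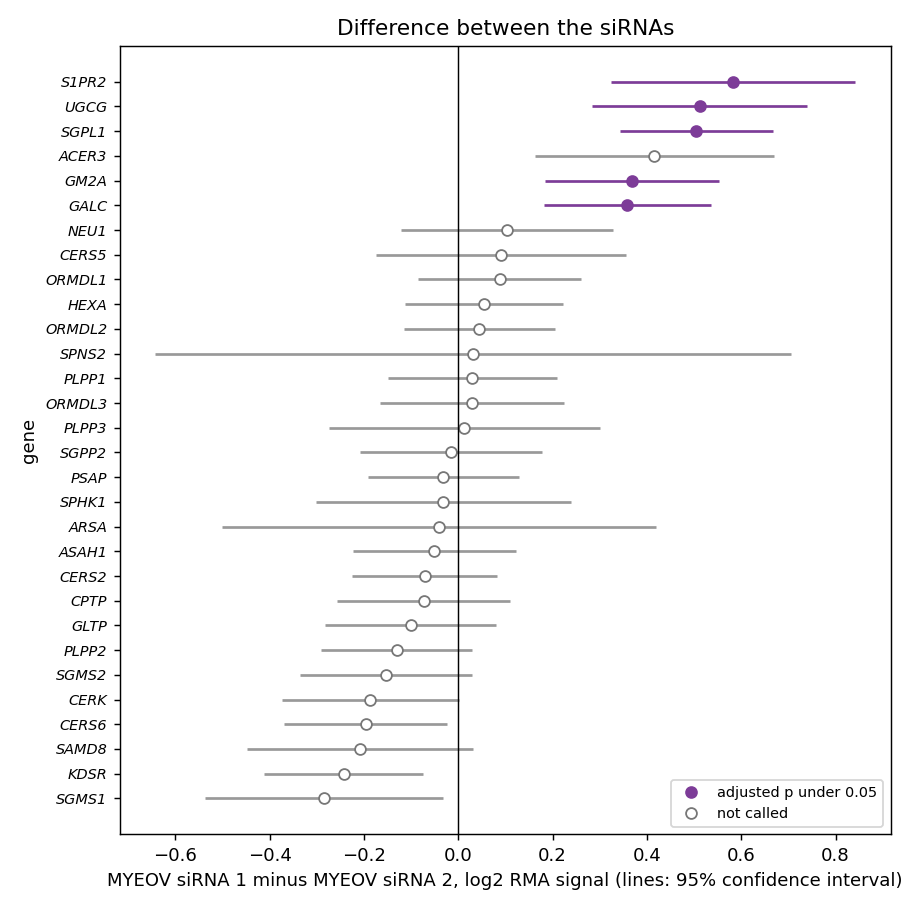
MYEOV siRNA 1 minus MYEOV siRNA 2 in log2 RMA signal (horizontal axis) for the 7 tested enzymes and the 23 tested genes of the wider sphingolipid list, in order of the difference; points are differences of means of 2 arrays, lines are 95% confidence intervals, and filled points have a limma adjusted p under 0.05. The 5 called genes, S1PR2, UGCG, SGPL1, GM2A and GALC, are all higher with siRNA 1.

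The wider pathway was covered by a list of 62 other sphingolipid genes, of which 31 had a named row and 23 were tested. With siRNA 1, 2 of the 23 were called higher and 1 lower, where 2.28% and 2.38% of all tested genes were. With siRNA 2, 2 were called higher and 1 lower, where 2.59% and 4.23% of all tested genes were. The list was not tested as a set, so these counts are not set apart from the shares. The median difference was 0.07 with siRNA 1 and 0.04 with siRNA 2, against -0.0027 and 0.00054 over all tested genes. No call of the list was kept with no filter, and SGMS2 was the one gene called for both siRNAs.

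Of sphingomyelin metabolism 3 genes were tested. With siRNA 1, SGMS2 was called higher and SAMD8 lower, where 2.28% and 2.38% of all tested genes were. With siRNA 2, SGMS2 alone was called, as higher, where 2.59% of all tested genes were. A group of 3 is too small to read against these shares. SGMS2, a sphingomyelin synthase of the plasma membrane, measured 6.44 and 6.28 on the control arrays, 6.77 and 6.79 on the siRNA 1 arrays, and 6.91 and 6.95 on the siRNA 2 arrays. All 4 siRNA arrays lay above the control. It rose by 0.42 ± 0.08 (SE, n = 2; interval 0.23 to 0.60, limma adjusted p = 0.0334) with siRNA 1 and by 0.57 ± 0.08 (interval 0.39 to 0.75, limma adjusted p = 0.00664) with siRNA 2, to 133% and 148% of the control signal. The siRNA 1 call was lost with any 1 array left out (limma adjusted p = 0.0573 to 0.173), and the siRNA 2 call without siRNA 2 replicate 2 (0.0504), with lowest values over all alternatives of 0.0273 and 0.00441.

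SAMD8, a ceramide phosphoethanolamine synthase of the same family, went the other way. It measured 7.73 and 7.55 on the control arrays, 7.17 and 7.15 on the siRNA 1 arrays, and 7.25 and 7.48 on the siRNA 2 arrays. It fell with siRNA 1, at -0.48 ± 0.10 (SE, n = 2; interval -0.72 to -0.24, limma adjusted p = 0.0482), and had -0.27 (interval -0.51 to -0.03, limma adjusted p = 0.179) with siRNA 2. The call was lost with quantile normalization (0.0524) and without either control array or either siRNA 1 array (0.0960 to 0.206), and its lowest adjusted p was 0.0135. SGMS1, the Golgi sphingomyelin synthase and the third of this role group, measured 8.94 and 8.81, then 8.67 and 8.37, then 8.80 and 8.81 in the same order of groups, and was not called (-0.35 with siRNA 1, interval -0.60 to -0.10, limma adjusted p = 0.126; chosen after its values were seen).

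**Figure D4:**
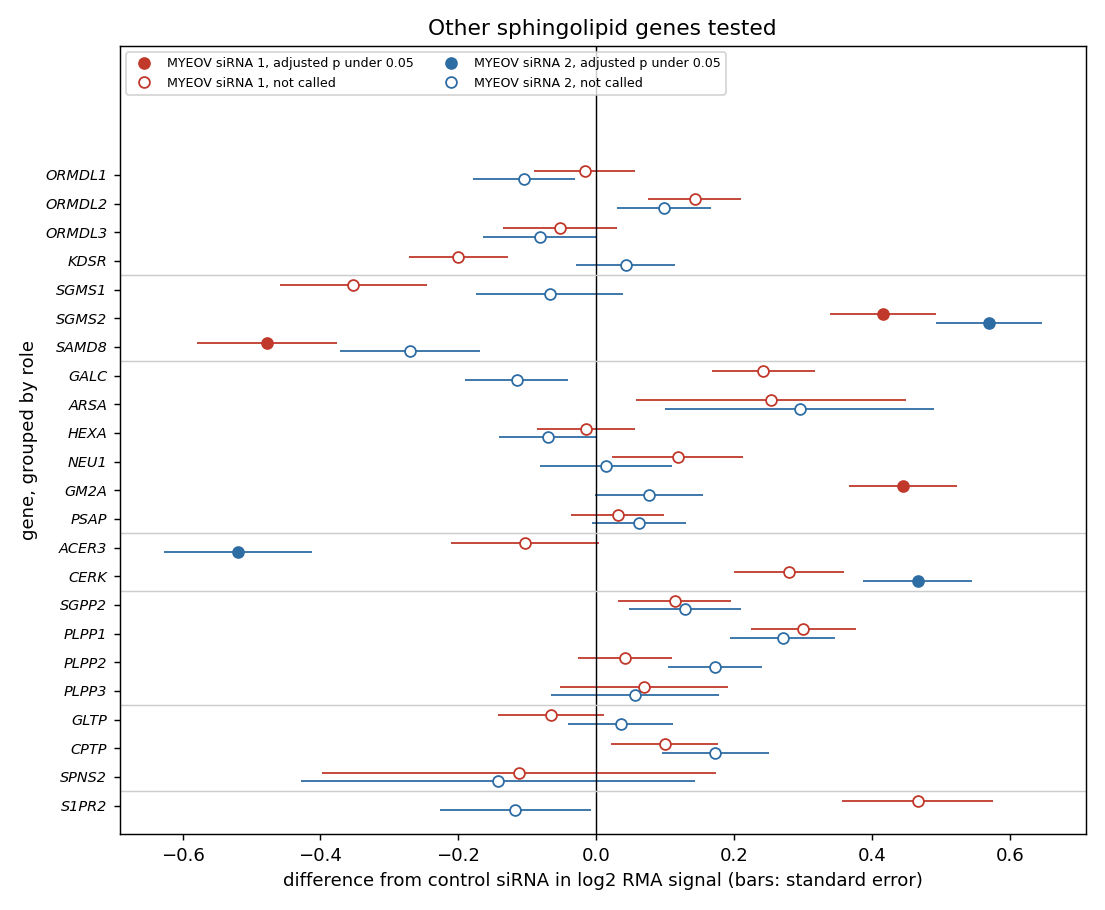
Difference from the control siRNA in log2 RMA signal (horizontal axis) for the 23 tested genes of the wider list, grouped by role between grey lines, with MYEOV siRNA 1 and MYEOV siRNA 2; points are differences of means of 2 arrays, bars are limma standard errors, and filled points have an adjusted p under 0.05. SGMS2 is called with both siRNAs, SAMD8 and GM2A with siRNA 1, and ACER3 and CERK with siRNA 2.

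Among the other enzymes that use ceramide directly, ACER3 and CERK were tested, and with siRNA 2 one was called lower and the other higher, where 4.23% and 2.59% of all tested genes were. A group of 2 is too small to read against these shares. ACER3, an alkaline ceramidase related to ACER2, measured 7.68 and 7.94 on the control arrays, 7.77 and 7.63 on the siRNA 1 arrays, and 7.22 and 7.35 on the siRNA 2 arrays. It fell with siRNA 2, at -0.52 ± 0.11 (SE, n = 2; interval -0.77 to -0.27, limma adjusted p = 0.0358), and overlapped the control with siRNA 1, at -0.10 (interval -0.36 to 0.15, limma adjusted p = 0.670). CERK, which phosphorylates ceramide, measured 7.59 and 7.66, then 7.98 and 7.82, then 8.07 and 8.11, and rose with siRNA 2 by 0.47 ± 0.08 (interval 0.28 to 0.65, limma adjusted p = 0.0178). With siRNA 1 CERK had 0.28 (interval 0.09 to 0.47, limma adjusted p = 0.108), called with the 75th percentile filter (0.0427) and otherwise up to 0.377. For ACER3, siRNA 1 minus siRNA 2 was 0.42 and not called (interval 0.16 to 0.67, limma adjusted p = 0.0589). It was called with the 75th percentile filter (0.0199), under the trended, robust prior (0.0293) and in the fits of the siRNA arrays alone or without either control array (0.0431 each), and reached 0.246 without siRNA 1 replicate 1. The ACER3 call was lost with any array but control replicate 1 left out (0.0601 to 0.148) and the CERK call without either control or either siRNA 2 array (0.0646 to 0.0974), with lowest values of 0.00863 and 0.00312. The ceramidases ACER1 and ASAH2 were below the filter.

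Of glycosphingolipid breakdown 6 genes were tested, of which 1 was called higher with siRNA 1 than with the control and 2 higher with siRNA 1 than with siRNA 2, where 2.28% and 5.37% of all tested genes were. GM2A, the activator protein that presents gangliosides to the lysosomal hydrolase, measured 7.38 and 7.50 on the control arrays, 7.82 and 7.95 on the siRNA 1 arrays, and 7.52 and 7.51 on the siRNA 2 arrays. It rose with siRNA 1 by 0.45 ± 0.08 (SE, n = 2; interval 0.26 to 0.63, limma adjusted p = 0.0277) and was higher there than with siRNA 2 by 0.37 (interval 0.18 to 0.55, limma adjusted p = 0.0302). GALC, the lysosomal galactosylceramidase, measured 7.20 and 7.32, then 7.47 and 7.53, then 7.11 and 7.17, and was higher with siRNA 1 than with siRNA 2 by 0.36 (interval 0.18 to 0.54, limma adjusted p = 0.0290), with neither siRNA called against control. ARSA, the sulfatide sulfatase, had the largest mean difference of this role group but wide replicates, from 5.34 to 6.05 over all arrays, and was not called. The GM2A call against control was lost with any 1 array left out (limma adjusted p = 0.0510 to 0.170), and the GM2A and GALC differences between the siRNAs without any 1 siRNA array (0.0741 to 0.168 and 0.0924 to 0.155), with lowest values of 0.00570, 0.00766 and 0.0187.

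Of the 5 sphingosine-1-phosphate receptors, 4 had a row and S1PR2 alone passed the filter. It measured 5.72 and 5.94 on the control arrays, 6.19 and 6.41 on the siRNA 1 arrays, and 5.78 and 5.65 on the siRNA 2 arrays. Both siRNA 1 arrays lay above the control, at 0.47 ± 0.11 (SE, n = 2; interval 0.21 to 0.72, limma adjusted p = 0.0656), and the siRNAs differed by 0.58 ± 0.11 (interval 0.32 to 0.84, limma adjusted p = 0.0208). That difference was lost without siRNA 1 replicate 2 or either siRNA 2 array (0.116, 0.0554 and 0.1003), with a lowest value of 0.0161. S1PR1, S1PR4 and S1PR5 were below the filter.

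No gene was called in the remaining role groups. Of sphingoid base and ceramide synthesis 4 were tested, and ORMDL2, a regulator of serine palmitoyltransferase, had the largest mean difference (0.14 with siRNA 1 and 0.10 with siRNA 2). KDSR, the reductase of the second step of sphingoid base synthesis, had -0.20 with siRNA 1 (limma adjusted p = 0.184), 0.04 with siRNA 2 (0.792) and -0.24 between the siRNAs (0.0873). It was called between the siRNAs with the 75th percentile filter and under the trended, robust prior (chosen after its values were seen). Of the other lipid phosphate phosphatases 4 were tested, and PLPP1, which dephosphorylates lipid phosphates at the cell surface, had 0.30 (limma adjusted p = 0.0806) and 0.27 (0.0854). PLPP1 was called with both siRNAs with the 75th percentile filter (0.0274 and 0.0306) and under the trended, robust prior (0.0334 and 0.0400), with highest values of 0.306 and 0.324. SGPP2, the second sphingosine-1-phosphate phosphatase, measured 5.41 and 5.55 on the control arrays, 5.61 and 5.58 on the siRNA 1 arrays, and 5.67 and 5.54 on the siRNA 2 arrays, and had differences of 0.11 and 0.13 (chosen after its values were seen). Of the carriers and exporters 3 were tested, with the ceramide-1-phosphate transfer protein CPTP at 0.10 and 0.17. Of 8 genes of glycosphingolipid synthesis 1 had a row, UGT8, which was below the filter.

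The genes whose profile was nearest to that of SGPP1 were ADAM9, TEX30, TTC9C, STAMBP and FCHSD2. Nearness is the Euclidean distance over the 6 arrays after subtracting each gene's control mean, and it was 0.32 for ADAM9, a membrane metalloprotease, and 0.38 for FCHSD2. These 5 had differences of -1.19 to -0.98 with siRNA 1 and of -0.29 to -0.08 with siRNA 2. Nearest to ACER2 were YRDC, a tRNA modification enzyme, L3MBTL2, the phospholipase DDHD1, KLHDC10 and RMND5A, at distances of 0.26 to 0.37. Their differences ran from -0.81 to -0.54 with siRNA 1 and from -0.52 to -0.29 with siRNA 2. These genes were chosen by their likeness, so no test is given.

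The nearest gene with a named row was taken on each side of SGPP1 and of ACER2. Genes without a named row were skipped, so closer neighbours may not have been measured here. Of the genes taken, those that passed the filter were not called. On chromosome 14, WDR89 lies on one side of SGPP1 and measured 8.13 and 8.17 on the control arrays, 8.27 and 8.12 on the siRNA 1 arrays, and 8.03 and 8.16 on the siRNA 2 arrays (differences of 0.05 and -0.06, limma adjusted p = 0.826 and 0.764). On chromosome 9, the ribosomal protein gene RPS6 lies on one side of ACER2 and had differences of -0.02 and -0.05 (limma adjusted p = 0.898 and 0.757). The nearest genes with a named row on the other sides were the microRNA genes MIR548H1 and MIR4473. Both were below the filter, with differences of 0.11 and 0.13, and of -0.17 and -0.19.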

How the data were processed

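The deposited values are log2 signals, and the submitters' processing notes name RMA, without a version, as the authors' tool. The table holds 53617 rows. The platform annotation gave 1 symbol to 16098, several to 0 and none to 37519, and all 16098 matched RefSeq (GRCh38.p14) by gene identifier. For the 779 genes with several rows the row with the highest mean was used. Genes were tested at a mean of at least 5.45, the median of the 14884 named genes.

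All tested genes were fitted with limma 3.58.1 in R 4.3.3 over the 6 arrays and 3 groups (3 residual and 4.09 prior degrees of freedom), with Benjamini-Hochberg adjustment over 7442 genes and a threshold of 0.05. With 2 arrays a group, the smallest exact permutation p is 0.333, so calls rest on sharing the spread between genes. The number of arrays limits the precision. The fit was tested on simulated data. Alternatives were other filters, row choices, normalization, samples in the fit, variance priors, a replicate block and each array left out. The members and lists were chosen with earlier results of these data known. Genes of the wider list were named where called or largest in their role group by the mean of both siRNAs. Scanner files were not used here. Plots were drawn with matplotlib 3.10.9.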

Additional observations from a re-analysis of the deposited data

Results flagged for a closer look

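Of the 7 tested enzymes and the 23 tested genes of the wider list, 5 had effects that differed between the 2 MYEOV siRNAs in limma's contrast of siRNA 1 with siRNA 2, where 5.37% of all tested genes were called higher and 3.78% lower. Of the enzymes, SGPL1 differed by 0.50 (log2, limma Benjamini-Hochberg adjusted p = 0.00585) and UGCG by 0.51 (0.0209). Of the wider list, S1PR2 differed by 0.58 (limma adjusted p = 0.0208), GM2A by 0.37 (0.0302) and GALC by 0.36 (0.0290). All 5 were higher on both siRNA 1 arrays than on both siRNA 2 arrays, and the arrays of the siRNAs did not overlap for 54.5% of all tested genes in either direction. Since the 5 were chosen by this contrast, the separation of their arrays adds no support.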

How the results depend on the processing

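Differences kept their sign wherever a result was called, and no scaling moved the median of all genes by 0.1. With no filter, limma called 0 of the 7 enzymes and 0 of the wider list in each of the 3 comparisons, and 39, 139 and 195 of all genes for siRNA 1, siRNA 2 and their difference, against 347, 508 and 681. The MYEOV difference with siRNA 1, -1.09, then had a limma adjusted p of 0.135. Fitting only the 2 groups compared called 1 gene of the wider list with siRNA 1, and 0 enzymes and 331 of all genes with siRNA 2. For siRNA 2, 2 enzymes, SGPL1 and UGCG, were called with the 75th percentile filter, with the trend and robust prior and with the replicate block. The trend and robust prior called 5 of the wider list between the siRNAs.

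With each array left out in turn, a lone array being assumed to vary like the other groups, 0 of the 7 enzymes were called for siRNA 1, 0 for siRNA 2 and 1 to 2 between the siRNAs. For the wider list the counts were 0 to 1, 0 to 2 and 0 to 4, and for all genes 58 to 235, 207 to 331 and 226 to 618. MYEOV with siRNA 1 ran from -1.23 to -0.94, and its call was lost with any 1 control or siRNA 1 array left out (limma adjusted p = 0.0671 to 0.146). ACER2 ran from -0.77 to -0.51 with siRNA 1 and from -0.27 to -0.0097 between the siRNAs.

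The groups share replicate numbers, and the deviations of same-numbered arrays correlated at 0.265, 0.205 and 0.251 over 7442 genes, but 2 numbers do not settle a pairing. With the replicate block, SAMD8 with siRNA 1 had a limma adjusted p of 0.0590, PLPP1 0.0490 with siRNA 1 and 0.0489 with siRNA 2, and UGCG 0.0306 with siRNA 2. The cause of these losses and gains was not tested.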
